A study of Mus musculus with 15 samples.

Results

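Binding of PU.1 in macrophages was examined at 4 mouse loci that encode lymphoid transcription factors: Pax5, Ebf1, Gata3 and Bcl11b. The windows, chosen by position on build mm9, span chromosome 4, 44525000 to 44745000 for Pax5 (220 kb), chromosome 11, 44410000 to 44840000 for Ebf1 (430 kb), chromosome 2, 9760000 to 9820000 for Gata3 (60 kb) and chromosome 12, 109130000 to 109260000 for Bcl11b (130 kb). In RefSeq (GRCm38.p6) the genes are 186, 390.0, 30.9 and 93.7 kb long in the same order, so each window is longer than its gene. The Pax5 gene lies between the coding genes Melk and Zcchc7, Ebf1 between Rnf145 and Clint1, and Bcl11b next to Setd3, while Gata3 overlaps the noncoding genes 4930412O13Rik and 9230102O04Rik. A peak belonged to a window if it overlapped it by at least 1 bp. The 840 kb held 37 of the peaks in the 4 lists from cells, which merged into 26 of 53107 regions, and 28 of 57509 peaks in the list from chromatin assembled in vitro.

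The cells were bone marrow-derived macrophages of C57BL/6 mice on day 7 of differentiation. They carried a doxycycline-inducible retroviral vector with a hairpin against PU.1 (shPU.1, n = 2 libraries) or the same vector with a hairpin against Renilla luciferase (control, n = 2 libraries; "empty" in the sample titles). Both groups had been selected with puromycin at 3 µg/ml from day 3 and given doxycycline at 0.5 µg/ml for 48 hours from day 5, and were immunoprecipitated with a PU.1 antibody (ChIP). The in vitro list came from macrophage DNA wrapped on recombinant histones and incubated with macrophage nuclear extract. Peaks were called on the library with extract depleted by normal IgG, with the library of PU.1-depleted extract as control, so each marks DNA recovered more often when PU.1 was present. Replicates carry a number in the labels without a mouse or culture of their own, and p-values then measure only the spread between libraries.

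PU.1 is an ETS-family transcription factor that binds purine-rich DNA around the letters GGAA. It drives macrophage development at high levels, while lower levels are compatible with B-cell fate and it is shut off as T cells commit. Ebf1 and Pax5 are the B-lineage pair: Ebf1 specifies the lineage and helps to switch on Pax5, which then holds B-cell identity and represses genes of other lineages. Gata3 is the zinc-finger factor of early T cells, type 2 helper T cells and innate lymphoid cells, and Bcl11b is the zinc-finger factor of T-lineage commitment. All 4 are known for lymphoid rather than macrophage identity. The lists measure binding, not expression, so neither the cell type nor the knockdown could be checked in them.

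The lists held 30026 and 36759 peaks for control replicates 1 and 2, and 15122 and 27733 peaks for shPU.1 replicates 1 and 2. They carry a score per peak and no read counts, so depth is unknown. Scores grow with depth and are compared here mainly as percentiles, the percent of a list's peaks with that score or a lower one. A fixed score of at least 100 is also used, and it is not an equal cutoff between lists. It keeps 58.8% of control replicate 2 but 32.3% of shPU.1 replicate 1. Peaks were narrower in replicate 1 (medians of 435 bp for control and 448 bp for shPU.1) than in replicate 2 (892 and 1076 bp), so a difference between replicates also carries a difference in width.

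The start-site sequences of the genes are shown because PU.1 recognises short purine-rich letters. RefSeq (GRCm38.p6) gave 5 promoters for the 4 genes, each covering 250 bases before the start site and 50 after it. The letters GAGGAA, searched on both strands, were found in 1 of the 2 Ebf1 promoters and at 2 places in that of Bcl11b, but not in those of Pax5, Gata3 or the other Ebf1 start. Capitals mark the matches, all on the opposite strand (TTCCTC). Of 32851 RefSeq promoters of this length, 28.3% held GAGGAA, and 13.6% held GAGGAAG, a longer form that contains it and that none of the 5 held. These are letters only, and the start sites have no mm9 position here, so no peak was placed relative to them.
Ebf1, second start, chr11:44619978-44620277, plus strand, GRCm38: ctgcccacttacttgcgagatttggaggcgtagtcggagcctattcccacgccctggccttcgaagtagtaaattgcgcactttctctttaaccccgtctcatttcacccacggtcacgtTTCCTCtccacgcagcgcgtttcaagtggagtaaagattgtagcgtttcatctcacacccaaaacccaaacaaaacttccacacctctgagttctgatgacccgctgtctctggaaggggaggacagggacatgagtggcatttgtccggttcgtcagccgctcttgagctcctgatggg
Bcl11b, chr12:108003365-108003664, minus strand, GRCm38: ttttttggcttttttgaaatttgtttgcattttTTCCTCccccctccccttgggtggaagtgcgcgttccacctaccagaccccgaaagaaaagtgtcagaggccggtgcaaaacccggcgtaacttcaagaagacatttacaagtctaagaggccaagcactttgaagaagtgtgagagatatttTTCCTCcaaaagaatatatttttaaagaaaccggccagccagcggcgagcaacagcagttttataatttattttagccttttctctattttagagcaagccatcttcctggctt

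Peaks lay in these windows in every list. In cells, control replicate 1 had 5 peaks, control replicate 2 had 10, shPU.1 replicate 1 had 6 and shPU.1 replicate 2 had 16. Set against the density of each whole list, the 2 control libraries were below it, at 0.524 and 0.855 times the list-wide peaks per 100 kb (mean 0.689 ± 0.235, SD, n = 2). Both shPU.1 libraries were above it, at 1.25 and 1.81 times (mean 1.53 ± 0.401, SD, n = 2). The in vitro list was also above its own density, at 1.53 times. For the controls the ratio fell to 0.258 when only peaks scoring at least 100 were counted. At that score the windows held 1 of 4888 peaks of shPU.1 replicate 1 and 2 of 13319 peaks of shPU.1 replicate 2. Both shPU.1 libraries were then below their list-wide density as well.

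**Figure D1:**
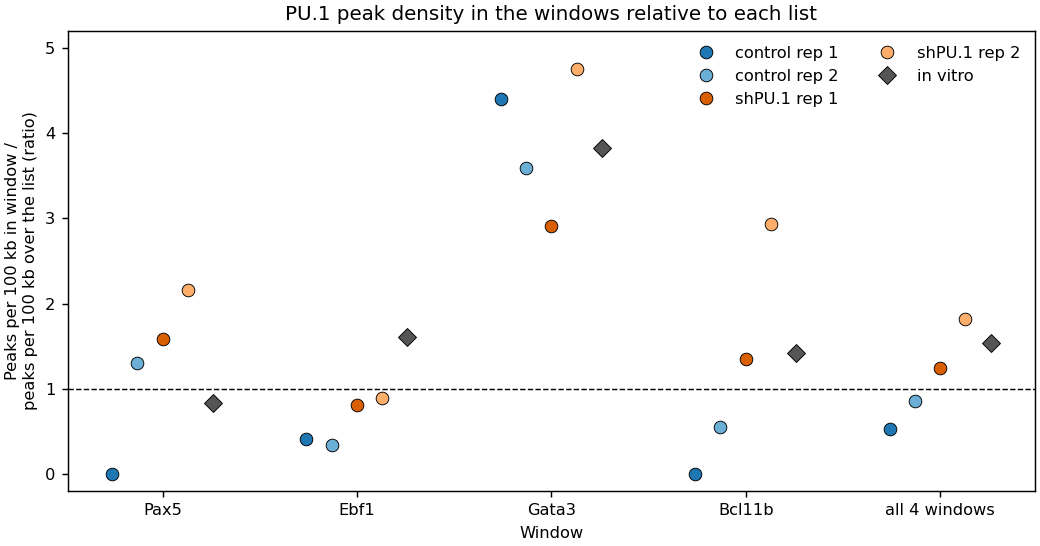
Peaks per 100 kb in each window divided by the peaks per 100 kb of the whole list, for each library (circles) and the in vitro list (diamonds); the dashed line marks equal density. Gata3 lies above the line in all 5 lists, and over all 4 windows the controls (0.524 and 0.855) lie below the line and the shPU.1 libraries (1.25 and 1.81) above it.

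The comparison of control with shPU.1 asked whether the windows held a different share of the PU.1 peaks after the hairpin was induced. The 4 windows took 0.0167% and 0.0272% of the control lists and 0.0397% and 0.0577% of the shPU.1 lists. Every shPU.1 share was above every control share. The means were 0.0219 ± 0.00746% and 0.0487 ± 0.0127% (SD, n = 2 each), a log2 ratio of 1.15, with p = 0.333 in an exact permutation test (two-sided), the lower limit of p for 2 libraries a side. With every list limited to its 15122 highest peaks the log2 ratio was 3.32, but it then rested on 1 control peak (1 and 0 peaks in control replicates 1 and 2, and 6 and 4 under shPU.1), and shPU.1 replicate 1, the shortest list, was not shortened. In raw numbers the groups overlapped, with 7.5 ± 3.54 peaks in controls and 11 ± 7.07 under shPU.1 (exact permutation p = 0.667).

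Window by window, the shPU.1 shares lay above both control shares for Pax5, Ebf1 and Bcl11b and overlapped them for Gata3. Such a separation was common over the genome. Among tiles of the same length with a peak in any library, it was found in 16.4% (Pax5 length), 20.0% (Ebf1), 14.8% (Bcl11b) and 14.2% (Gata3). The log2 ratios of the mean shares were 1.52 for Pax5, 1.19 for Ebf1, 2.95 for Bcl11b and -0.06 for Gata3. With 4 windows compared, the exact permutation p was 0.333 for the first 3 (Benjamini-Hochberg adjusted 0.444) and 1.00 for Gata3 (adjusted 1.00). Pax5 and Bcl11b had no peak in control replicate 1, so their ratios rest on control replicate 2 alone.

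The peaks in cells were weak for their lists. Of the 37 peaks, 6 (16.2%) scored above the median of their list and 0 were above the 90th percentile, where a count of 0 allows a share of up to 8.11% (3 counts of the total, counting error only). Over a whole list these shares are 50% and 10% by construction. The median percentile in the windows was 7.19 in control replicate 1 and 28.2 in control replicate 2, against 44.1 and 31.4 in shPU.1 replicates 1 and 2. The highest peak of each library lay at the Gata3 window in control replicate 1 (percentile 59.6), shPU.1 replicate 1 (71.3) and shPU.1 replicate 2 (82.7), and at Bcl11b in control replicate 2 (51.7). A score of at least 100 was reached by 1, 2, 1 and 2 peaks in control replicates 1 and 2 and shPU.1 replicates 1 and 2, while 46.5%, 58.8%, 32.3% and 48.0% of those whole lists reached it.

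**Figure D2:**
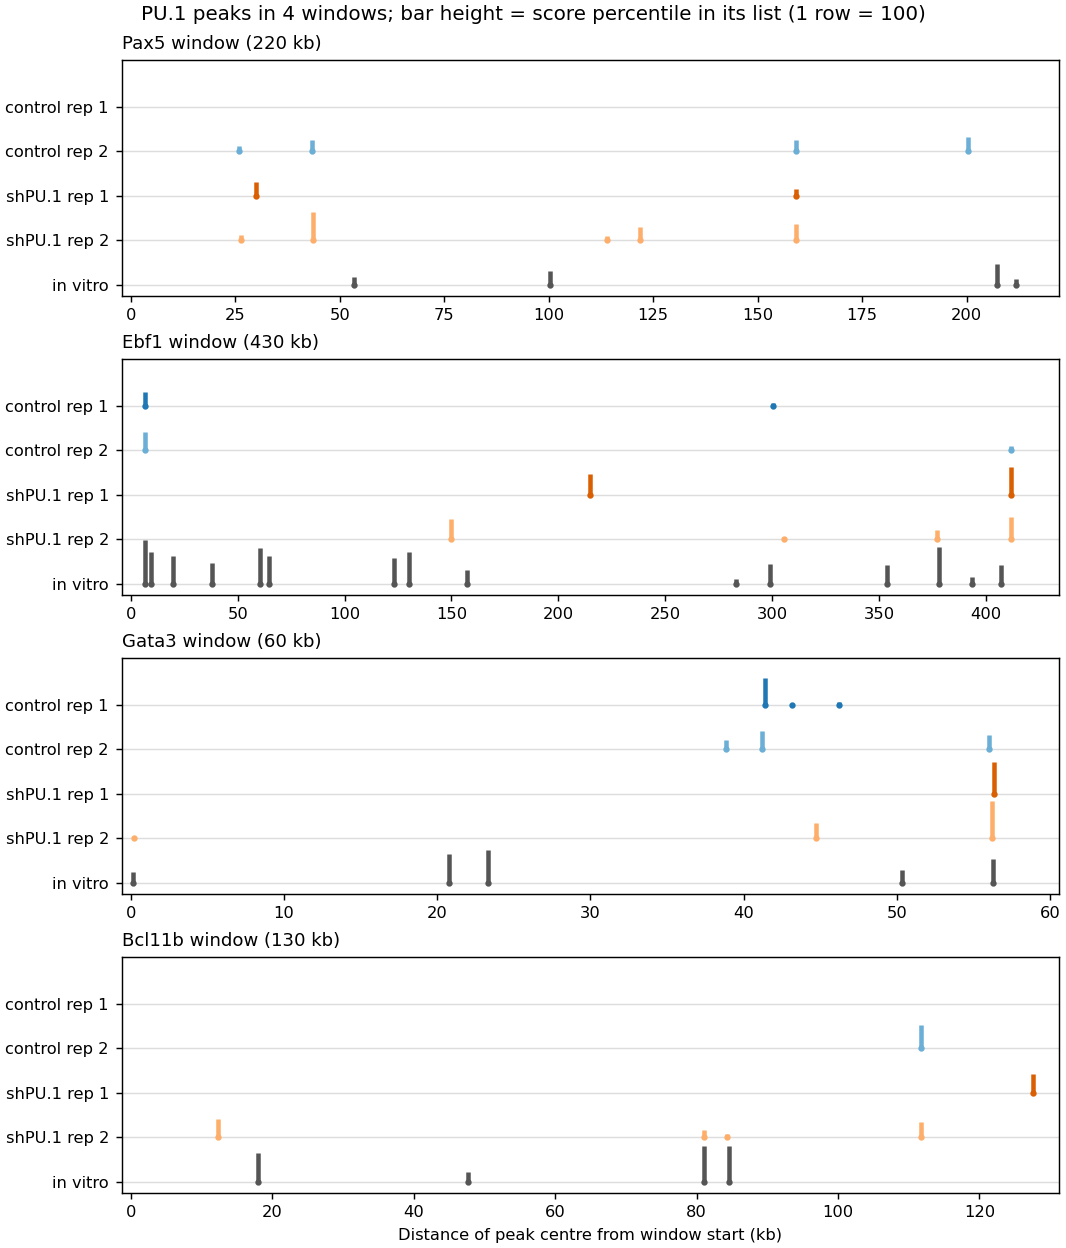
Peaks of the 5 lists in the 4 windows, by distance of the peak centre from the window start in kb; dots mark each peak and bar height gives its score percentile within its list, with 1 row equal to 100. The tallest bar is the in vitro peak near the start of the Ebf1 window (percentile 98.2), and no peak from cells passes percentile 82.7.

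Few regions recurred between libraries. None of the 26 regions had a peak in all 4 libraries, a state that held for 16.3% of all regions (a count of 0 in 26 allows up to 11.5%, counting error only). A single library accounted for 18 of the 26 (69.2%, against 47.6% of all regions), and 10 of these 18 came from shPU.1 replicate 2. Regions seen only in shPU.1 libraries numbered 13 of 26, against 20.4% of all regions. Without shPU.1 replicate 2 only 16 regions were left in the windows.

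Only 2 regions had a peak in both control libraries, where 40.8% of all regions did. One lay at Ebf1 and the other at Gata3. Both were lost, meaning that neither shPU.1 library had a peak there. Over all control regions 29.1% were lost and 40.0% were kept, with a peak in both shPU.1 libraries. The number is too small to set against these shares: the exact 95% interval of 2 of 2 runs from 15.8% to 100%. With control replicate 1 left out, 10 regions of control replicate 2 remained, of which 3 were kept and 4 lost. Over all 36010 regions of control replicate 2, 27.0% were kept and 43.6% lost by the same rule, close to these shares.

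A recurring pattern was a peak in control replicate 2 and both shPU.1 libraries but not in control replicate 1. It held for 3 of the 26 regions, 1 each at Pax5, Ebf1 and Gata3, and for 1.97% of all regions. These 3 were the only regions of the windows seen in both shPU.1 libraries. Control replicate 1 shared 2 regions with control replicate 2 and 0 with either shPU.1 library, out of its 5. Over the whole list 77.5% of its regions were shared with control replicate 2, and 34.7% and 55.1% with shPU.1 replicates 1 and 2.

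Where both control replicate 2 and shPU.1 replicate 2 had a peak, the score percentile could be compared between them. It was higher in shPU.1 replicate 2 at 5 of 6 regions (3 at Pax5, 1 at Ebf1 and 1 at Gata3) and lower at the Bcl11b region. At the first Pax5 region the percentiles nearly coincided (11.8 in control replicate 2 and 11.9 in shPU.1 replicate 2). Over all 19146 regions shared by these libraries it was higher at 46.4%. The median difference (shPU.1 minus control) was 24.3 percentile points in the windows and -1.36 over all. The regions in the windows started lower, at a median percentile of 24.5 in control replicate 2 against 69.4 over all shared regions. Among the 5060 shared regions within the windows' range in control replicate 2 (percentiles 10.2 to 51.7), 66.3% were higher in shPU.1 replicate 2, with a median difference of 11.3 points. This rests on 1 library per group and has no replicate check.

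**Figure D3:**
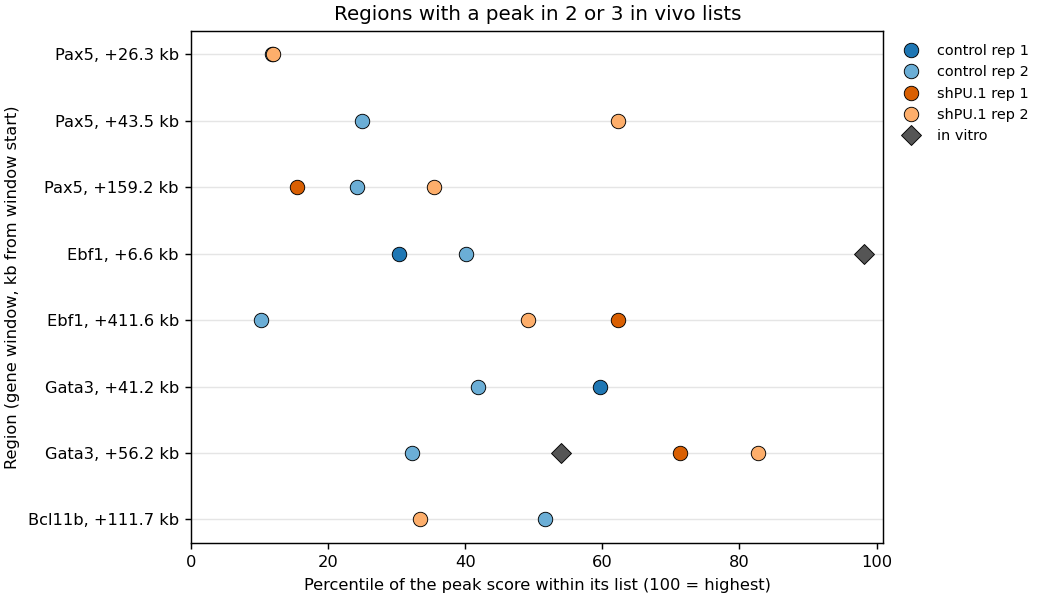
Score percentile in each list for the 8 regions with a peak in 2 or 3 libraries, named by window and distance from its start in kb; circles are libraries from cells and diamonds in vitro peaks. Control replicate 1 appears at the Ebf1 and Gata3 regions without an shPU.1 peak, and the Gata3 region at 56.2 kb reaches percentile 82.7 in shPU.1 replicate 2; at the first Pax5 region the 2 points nearly coincide.

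At Pax5, the guardian of B-cell identity, control replicate 1 had 0 peaks, control replicate 2 had 4, and shPU.1 replicates 1 and 2 had 2 and 5. In control replicate 2 and both shPU.1 libraries this was 1.31, 1.59 and 2.16 times the list-wide density. The flanking 500 kb on each side held 1.7 and 2.3 peaks per 100 kb in the controls and 0.8 and 2.0 under shPU.1. The window itself held 0 and 1.82 in the controls and 0.909 and 2.27 under shPU.1. Of all 220 kb tiles 48.7% held no peak in control replicate 1. As many peaks as the window or more were found in 32.5% of tiles in control replicate 2, and in 30.2% and 19.9% in shPU.1 replicates 1 and 2.

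The Pax5 peaks formed 7 regions, of which 3 were in more than 1 library. The region at chromosome 4, 44683609 to 44684697 scored 72.98 in control replicate 2, and 56.35 and 72.74 in shPU.1 replicates 1 and 2 (percentiles 24.2, 15.5 and 35.4). The region at 44567903 to 44569141 scored 73.72 in control replicate 2 and 132.31 in shPU.1 replicate 2 (percentiles 24.8 and 62.3), and had no peak in either replicate 1. It was the strongest Pax5 peak in any library. The region at 44550491 to 44552042 was near the floor of both lists that held it, at percentiles 11.8 and 11.9 in control and shPU.1 replicate 2. The other 4 regions were seen once, at percentiles from 9.93 to 31.6.

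At Ebf1, the B-lineage specifier and the longest window, peaks from cells were below the list-wide density in each library. Each control had 2 peaks, and shPU.1 replicates 1 and 2 had 2 and 4, which was 0.409 and 0.334 times the list-wide density in controls and 0.812 and 0.886 times under shPU.1. Of all 430 kb tiles, 46.5% and 51.4% held more peaks than the window in control replicates 1 and 2, and 36.0% and 39.2% in shPU.1 replicates 1 and 2. Fewer peaks were held by 47.6% and 42.9% in the controls and by 53.5% and 54.5% under shPU.1. Among tiles of its length the window was thus near the middle. The flanks held 1.0 and 1.9 peaks per 100 kb in the controls, against 0.465 in the window in both.

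The Ebf1 region shared by both controls lay at chromosome 11, 44416395 to 44416840, about 6.62 kb inside the window. It scored 71.14 and 97.61 in control replicates 1 and 2 (percentiles 30.3 and 40.1) and had no peak under shPU.1. Near the other end, the region at 44821167 to 44822085 scored 58.6 in control replicate 2, and 90.59 and 93.69 in shPU.1 replicates 1 and 2 (percentiles 10.2, 62.2 and 49.2), and had no peak in control replicate 1. Control replicate 2 had a peak at both of these regions, and each other library at 1 of them. The remaining 5 regions were each seen once, at percentiles from 4.23 to 46.7.

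At Gata3, the early T-cell factor, the 60 kb window was the densest. Each control had 3 peaks, and shPU.1 replicates 1 and 2 had 1 and 3, between 2.91 and 4.76 times the list-wide density. The flanks held 0.9 and 1.3 peaks per 100 kb in the controls and 0.5 and 1.1 under shPU.1, below the 5.0 of the window in both controls and the 1.67 and 5.0 under shPU.1. Of all 60 kb tiles, 9.59%, 12.7%, 22.9% and 7.23% held as many peaks or more in control replicates 1 and 2 and shPU.1 replicates 1 and 2.

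Of the 7 Gata3 regions, 5 lay within 8.05 kb, at chromosome 2, 9798279 to 9806325, and none of these 5 was shared between the groups. Over all regions 60.0% likewise had peaks of 1 group only. The control region at 9800785 to 9801589 scored 112.46 and 100.88 in control replicates 1 and 2 (percentiles 59.6 and 41.8) and had no shPU.1 peak. Around it were 2 further peaks of control replicate 1 and 1 of control replicate 2, all below percentile 20. The 1 peak of shPU.1 replicate 2 there, at 9803817 to 9805595 (percentile 34.4), sat between 2 peaks of control replicate 1, 377 bp from one and 458 bp from the other.

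The strongest peak from cells in any window lay 9.25 kb further on, at chromosome 2, 9815578 to 9816758. It scored 108 and 300.58 in shPU.1 replicates 1 and 2 and 83.76 in control replicate 2, with no peak in control replicate 1. The percentiles were 71.3, 82.7 and 32.3. Both shPU.1 libraries thus ranked it higher than the control that held it. It was also the only region of the windows with a peak in 3 libraries and in vitro.

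At Bcl11b, the T-lineage commitment factor, control replicates 1 and 2 had 0 and 1 peaks, and shPU.1 replicates 1 and 2 had 1 and 4. This was 0 and 0.553 times the list-wide density in controls, and 1.34 and 2.93 times under shPU.1. Of all 130 kb tiles 13.3% held as many peaks as shPU.1 replicate 2 or more, and 56.9% shared the absence of peaks in control replicate 1. The region at chromosome 12, 109241265 to 109242119 was the only one in more than 1 library, with scores of 125.24 in control replicate 2 and 70.43 in shPU.1 replicate 2 (percentiles 51.7 and 33.3). The other 4 were seen only under shPU.1, 3 in replicate 2 and 1 in replicate 1, at percentiles from 6.99 to 41.5.

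**Figure D4:**
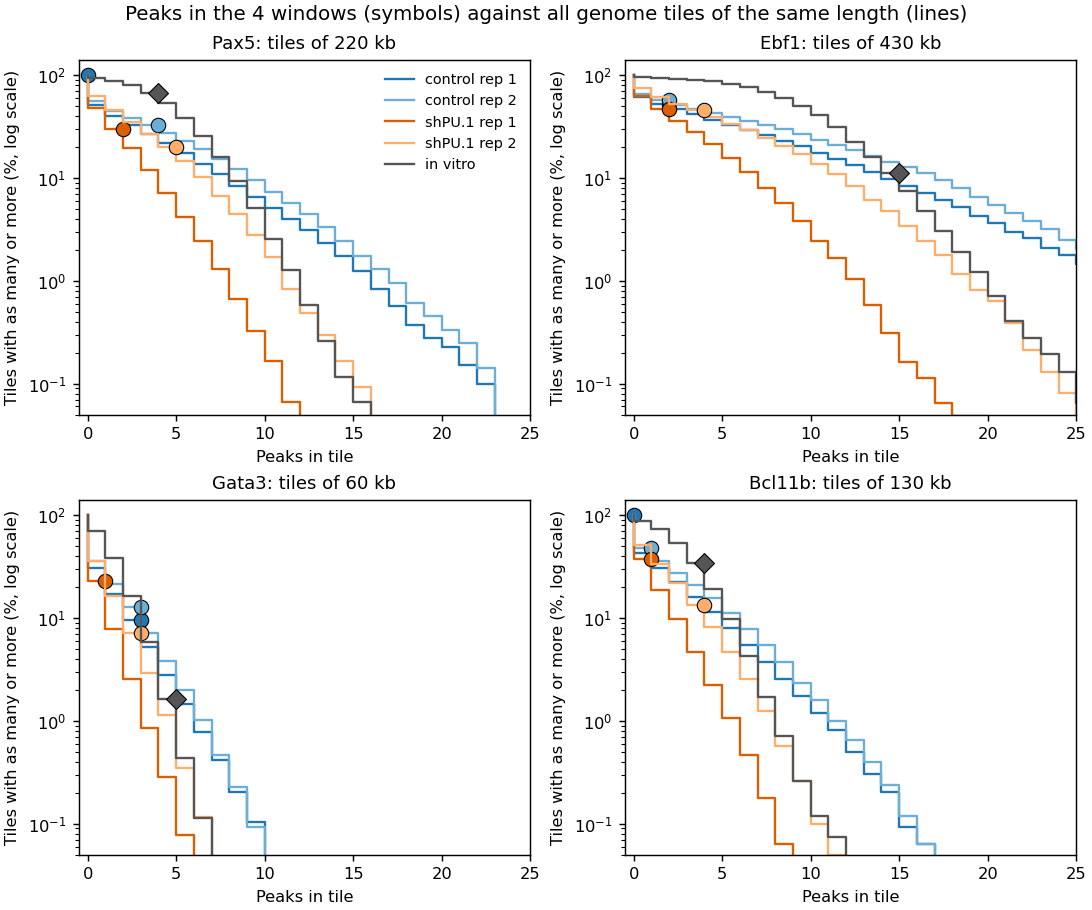
Percent of all genome tiles (log axis) with at least the number of peaks on the x axis, for each list (lines) and for tiles of each window's length; symbols mark the window itself. The in vitro diamond is lowest at Gata3, where 1.64% of tiles held 5 or more peaks, and at Ebf1, where 11.3% held 15 or more.

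The in vitro list asked where PU.1 from macrophage extract can bind these loci outside the cell. It had 4 peaks at Pax5, 15 at Ebf1, 5 at Gata3 and 4 at Bcl11b, or 0.835, 1.60, 3.83 and 1.41 times its list-wide density. As many peaks or more were found in 67.4%, 11.3%, 1.64% and 34.0% of tiles of the same lengths. Ebf1 held 15 peaks in vitro and a mean of 2.5 over the libraries from cells. Of the 6125 tiles of that length 691 held as many in vitro peaks or more, with a median of 6.25 mean peaks in cells. As many in vitro peaks or more, with no more peaks in cells than Ebf1, were found in 188 of the 6125 (3.07%). The same measure was 1.26% for Gata3, 19.9% for Bcl11b and 42.9% for Pax5, each over tiles of its own length. Among tiles with as many in vitro peaks or more, these were 552 of 723, 4029 of 6901 and 5135 of 8079, against 188 of 691 at Ebf1. The low percent at Gata3 thus mostly followed its in vitro count. Averaged over control and shPU.1 libraries together, Gata3, Bcl11b and Pax5, unlike Ebf1, had more peaks in cells than the median of such tiles. Their means in cells were 2.5, 1.5 and 2.75, against tile medians of 1, 1 and 1.5, in the same order. By group, the control means were 3, 0.5 and 2, and the shPU.1 means 2, 2.5 and 3.5. At Bcl11b 4 peaks were of shPU.1 replicate 2. Tile medians were not taken for the controls alone. The flanks of Ebf1 were as rich in vitro as the window, at 3.4 against 3.49 peaks per 100 kb. The in vitro list has no replicate.

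In vitro peaks in the windows had a higher median rank within their list than peaks from cells did in theirs. Their median percentile was 50.8, and 14 of 28 were above the list median, near the 50% that a whole list gives by construction. The median percentile was 23.2 at Pax5, 58.6 at Ebf1, 54.0 at Gata3 and 71.5 at Bcl11b. At Pax5 it was not above control replicate 2 (24.5) or shPU.1 replicates 1 and 2 (23.3 and 29.6). At Gata3 it was below shPU.1 replicate 1 (71.3, 1 peak).

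In vitro and cell peaks coincided in shares close to those of the whole lists. Of the 28 in vitro peaks, 6 (21.4%, exact 95% interval 8.30 to 41.0) lay on a region bound in cells, against 20.7% of the whole list. Of the 26 regions from cells, 6 (23.1%, 8.97 to 43.6) held an in vitro peak, against 22.3% of all regions. These intervals cover counting of peaks only, since peaks of a library are not replicates. Both shares leaned on shPU.1 replicate 2: without it 2 of 28 in vitro peaks (7.14%) lay on a region, and 2 of 16 regions (12.5%) held one. Within 10 kb of a region from cells lay 14 of the 28, against 40.2% of the whole list.

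The 6 coincidences differed by locus. Pax5 had 0 of 4, and its in vitro peaks lay 6.17 to 12.9 kb from the nearest region. At Ebf1 2 of 15 coincided. The strongest in vitro peak of any window, with a score of 883.09 (percentile 98.2), lay at chromosome 11, 44416060 to 44417076 and covered the region that both controls shared and both shPU.1 libraries lacked. It was the only one of the 28 above the 90th percentile, where 42.7% of the list's peaks lay on a region. The next, at 44786945 to 44788663 (score 238.9), lay on a peak of shPU.1 replicate 2, and the third, at 44470151 to 44471113 (score 229.93), was 53.3 kb from any region.

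At Gata3 2 of 5 in vitro peaks coincided: that at chromosome 2, 9815818 to 9816746 (score 112.36, percentile 54.0) with the region strongest under shPU.1, and a weaker one with a peak of shPU.1 replicate 2 that crossed the window's edge. Its 2 strongest in vitro peaks, at 9782810 to 9783843 (score 176.62) and 9780030 to 9781491 (score 143.33), were 14.4 and 16.8 kb from any region. At Bcl11b 2 of 4 coincided, at 109213986 to 109215143 (score 233.55) and 109210505 to 109211690 (score 221.01), each with a peak of shPU.1 replicate 2 alone. Those peaks from cells were weak, at percentiles 6.99 and 16.0, while the in vitro peaks were at 80.8 and 79.3. The third, at 109147578 to 109148416 (score 138.26), was 4.89 kb from a region. At Pax5 the 3 strongest scored 97.39, 74.13 and 60.56, at chromosome 4, 44731866 to 44732662, 44624940 to 44625838 and 44577970 to 44578722. Of the 6 coincidences over the 4 windows, 1 involved control libraries only, 4 shPU.1 replicate 2 only, and 1 libraries of both groups. Over all regions that held an in vitro peak, 31.6% were bound in control libraries only, 7.44% in shPU.1 replicate 2 only and 58.6% in libraries of both groups.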

How the data were processed

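PU.1 ChIP libraries from control and shPU.1 macrophages (n = 2 each) and 1 in vitro pair were used. The 9 MNase samples were not used here. Alignment was to mm9 with Bowtie 0.12.7 and peak calling with MACS 1.4, as the submitters' processing notes have it, with settings not stated there. The deposited BED lists hold a score per peak, by MACS convention 10 times the negative log10 of its p-value, and the lowest score in the lists is 50. Per the deposited files' names, each library was called against an input and replicates were not pooled. No depth is known.

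Starts were converted to count from 1, and 3 chromosome M peaks of the in vitro list were left out. Peaks of the 4 lists from cells sharing at least 1 bp were merged into regions. List-wide density used each chromosome up to its last peak. Tiles of each window's length covered chromosomes 1 to 19 and X without overlap; they include unmappable sequence. Groups were compared by exact permutation over libraries. Analyses ran in Python 3.11.15 with scipy 1.17.1. Counting and merging were tested on simulated peaks.

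The members and lists were chosen with earlier results of these data known. Named in the text are all 4 windows, every region in 2 or more libraries, the 3 highest in vitro peaks per window, and peaks singled out after their values were seen. Gene names, lengths and promoters come from GRCm38 tables; no mm9 annotation or sequence was used, so whether a window spans its gene was not checked, and no peak is given as exonic, intronic or promoter.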

Additional observations from a re-analysis of the deposited data

How the results depend on the processing

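Depth is unknown for every list and each group has 2 libraries, which limits all values. The log2 ratio of list shares (1.15) stayed above 0 in all 11 alternatives. Some of these could hardly move it: autosomes only (1.147, all 4 windows being autosomal), trimmed peaks (1.151) and peak centres (1.151). Leaving out 1 library or comparing libraries of the same number could not bring it to 0, since every shPU.1 share was above every control share. At a score of at least 100 (1.11) the windows held 1 and 2 peaks in each group. That ratio came only from the smaller number of such peaks in the shPU.1 lists. The log2 ratio was 0.84 to 1.55 with 1 library left out (0.84 without control replicate 1, 1.55 without control replicate 2). With the windows extended by 50 kb on both sides it was 0.84. The ratio of densities in the controls (0.689) became 0.258 for scores of at least 100, 0.104 with each list held to its 15122 highest peaks (1 control peak in all), and 0.524 to 0.855 with a control left out. That of the in vitro list (1.53) ran from 1.04 to 1.53 over 6 alternatives. All 6 lay within its interval of 1.02 to 2.21 (counting error only). That interval is wide and rests on 1 list without a replicate, so this is a weak check. With the in vitro list held to its 15122 highest peaks, 5 lay in the windows. The ratio was then 1.04, close to the list-wide density, while at a score of at least 100 it was 1.47. The share of control regions lost, 100% of 2, was 40.0% to 100% with a library left out, and that kept 0% to 30.0%; with lists held to that length no control region was left and neither share could be had. With that limit, 0 of 9 regions held an in vitro peak and 0 of 5 in vitro peaks lay on a region (0%). At a score of at least 100 the latter share was 7.14%. With 1 library left out it ran from 7.14% (without shPU.1 replicate 2) to 21.4%, and the share of regions holding an in vitro peak from 12.5% to 26.1%.

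With a replicate block the mean log2 ratio of list shares was 1.17 (1.25 for number 1 and 1.08 for number 2). Nothing in the labels ties a number to 1 mouse or date, so the libraries are not taken as paired; over 6125 tiles the differences between the numbers had a correlation of 0.118 between the groups. Counting peaks by their centre was added after seeing the data and changed no count.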
